A study of Mus musculus with 32 samples.

Results

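The effect of the Nudt7 knockout on the liver transcriptome was examined in female mice fed a control diet (CD), as the difference between 4 livers of Nudt7-/- (KO) females and 4 livers of wild-type (WT) littermate females, 8 of the 32 libraries of the series. The members are the libraries that carry these labels, and no measured value was used to choose them. The series comprised liver mRNA of 8 groups of 4 libraries, formed by genotype, sex and diet, and the remaining groups (males on the CD, and females and males on a Western diet, WD) serve here only to show where the females on the CD differ. KO mice carried a whole-body deletion of Nudt7 exons 3 and 4, made with CRISPR/Cas9 in FVB zygotes. The line descends from 1 mosaic founder and was crossed back to C57BL/6J, so alleles of FVB origin near the deletion can travel with the KO genotype. Both groups ate the CD (10% of energy from fat, 0% cholesterol) from 6 weeks of age and were killed between 17 and 20 weeks of age. The labels name a fed and a fasted harvest without saying which applied to these livers, so the nutritional state cannot be told apart from the other differences between libraries.

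NUDT7 is a Nudix hydrolase of peroxisomes that splits coenzyme A (CoA) and acyl-CoAs, and it is abundant in liver. CoA carries acyl groups into fatty acid oxidation in mitochondria and peroxisomes and into the synthesis of lipids, cholesterol and bile acid conjugates. Its level is set by synthesis from pantothenate, which begins at the pantothenate kinases, and by degradation through Nudix hydrolases in several compartments.

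The guides that flanked the deleted region are shown because the position of one of them bears on which Nudt7 reads could remain in KO livers. Each is given 5′ to 3′ as the labels state it, with the protospacer adjacent motif in capitals.
5g: tcccaacccaacatagtggaAGG
3g: tggaattactccctaaccccAGG
Guide 3g matched the minus strand at chr8:114152408-114152430 (GRCm38), found through the annotated transcripts of GENCODE vM21. This site lies in exon 4 of Nudt7-202, within its 3′ untranslated region, and starts 96 bases past the last base of every other annotated Nudt7 transcript. Of the 3086 bases of that exon, 2309 lie downstream of the site. Guide 5g matched none of the 5 annotated Nudt7 transcripts, and it was not placed on the genome here.

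Nudt7 (chr8:114133557-114154739, plus strand) was lower in every KO library. It stood at 178, 242, 186 and 125 CPM (counts scaled to the same library size with TMM factors) in WT replicates 1 to 4 and at 21.7, 38.9, 26.6 and 46.3 CPM in KO replicates 1 to 4. The groups did not overlap, and the log2 fold change of KO over WT was −2.45 (standard error 0.27, adjusted p = 0.0159, edgeR). What remained came from particular transcripts. Nudt7-201, Nudt7-204 and Nudt7-205 together held 57.8% to 68.2% of the gene's counts in the WT libraries, and all of them were listed at 0 counts in all 4 KO libraries.

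The KO counts were assigned to Nudt7-202 and Nudt7-203 alone. Nudt7-202, whose last exon runs 2427 bases past the end of the others, stood at 15.8, 17.3, 13.7 and 12.6 TPM (a level per transcript length, scaled to the same total in every library) in WT and at 3.04, 7.36, 5.43 and 8.46 TPM in KO livers. Nudt7-203, whose first exon extends 1740 bases past the first exon of the others and lies upstream of exon 3, stood at 12.8, 14.9, 16.3 and 12.8 TPM in WT and at 5.87, 10.4, 7.80 and 12.5 TPM in KO livers. In both transcripts every KO value lay below every WT value. The long stretch of Nudt7-202 lies largely downstream of the 3g site and that of Nudt7-203 upstream of the region labelled as deleted, so the estimate for either transcript can be fed by reads from sequence that the deletion leaves in place. Summed over its transcripts Nudt7 was 234 ± 59.5 TPM in WT and 15.2 ± 5.26 TPM in KO livers (SD, n = 4 each, exact permutation test, two-sided, p = 0.0286, the smallest that 4 against 4 allows). On the scale of TPM, which weighs counts by transcript length, the KO level is thus a smaller part of the WT level than on the scale of CPM.

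**Figure D1:**
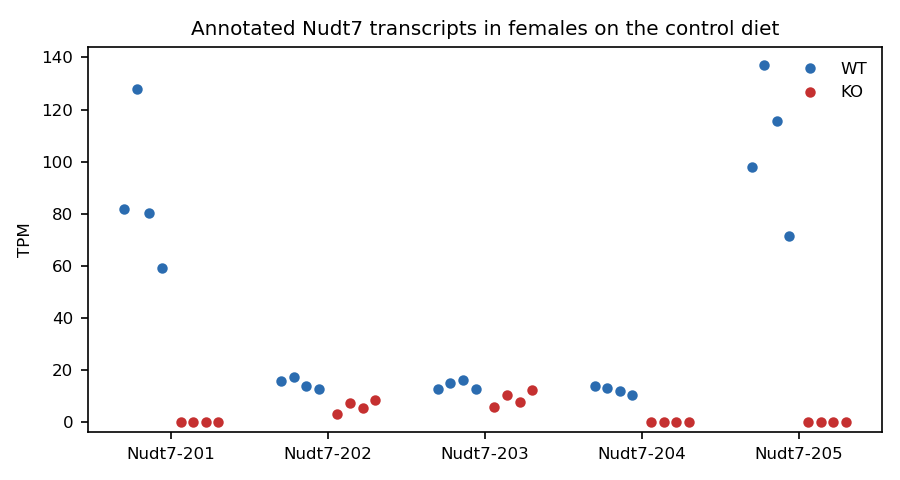
Level of each annotated Nudt7 transcript (x axis) in TPM (y axis) in the 4 WT (blue) and 4 KO (red) livers of females on the CD, 1 point per library. Nudt7-201, Nudt7-204 and Nudt7-205 lie at 0 in KO livers, while Nudt7-202 and Nudt7-203 remain between 3.04 and 12.5 TPM.

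The 8 libraries held 11071146 to 15084668 estimated counts (median 13117882). Their hepatocyte markers were all at high level, with a summed TPM of 60292 to 74518, and the first principal component (31.3% of the variance) placed WT replicate 2 and KO replicate 3 at one end and KO replicates 1 and 4 at the other. WT replicates 2 and 4 and KO replicate 3 held transcripts of the exocrine pancreas at more than 10 times the median library. The summed TPM of 21 acinar markers was 153, 14515, 135 and 2891 in WT replicates 1 to 4 and 43.6, 275, 6837 and 30.3 in KO replicates 1 to 4. Prss2, a trypsinogen of acinar cells, stood at 432 CPM in WT replicate 2, 84.4 in WT replicate 4 and 189.8 in KO replicate 3 and between 0 and 6.45 CPM in the other 5. All 21 markers exceeded 1 TPM in the 3 libraries of high acinar level, 19 did so in WT replicates 1 and 3 and 20 in KO replicate 2, against 2 in KO replicate 1 and 3 in KO replicate 4. Acinar transcripts took 0.803% of the counts of WT replicate 2, the highest share. In another respect WT replicate 1 stood apart, with a summed TPM of 297 for 10 lymphocyte markers against 18.3 to 62.2 in the others (Ighm, the heavy chain of IgM, at 102 CPM against 5.43 to 16.6). Of 10 marker lists none passed the test between the groups (exact permutation test over 4 against 4 libraries, two-sided), and the lowest p was 0.2, for stellate cells. In bulk liver fewer cells of a type and less RNA per cell cannot be told apart. Nnt, a mitochondrial transhydrogenase that C57BL/6J mice lack in intact form, stood at 44.1 to 58.1 CPM in WT and at 45.7 to 53.2 CPM in KO livers.

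Of 12753 genes tested 4 differed at an adjusted p under 0.05 in edgeR, or 0.0314% of all genes. Ces1b, Gm45910 and Cables1 were higher in KO livers (0.0235% of genes were called higher) and Nudt7 was lower (0.00784%). At an unadjusted p under 0.05 there were 876 genes (6.87%), 439 higher and 437 lower. The median log2 fold change over all genes was 0.01 and the median standard error was 0.17. Every KO library exceeded every WT library for 2.09% of genes and lay below every WT library for 2.29%. Without the 3 libraries with acinar transcripts only WT replicates 1 and 3 were compared with KO replicates 1, 2 and 4. In this smaller edgeR fit no gene was called, of 12221 tested (710 at an unadjusted p under 0.05). The log2 fold changes were then 2.74 for Ces1b, 1.72 for Cables1 and −2.35 for Nudt7 (adjusted p = 0.433 each), and Gm45910 no longer passed the filter. When single libraries were left out, Nudt7 passed without WT replicate 4 or KO replicate 4 (adjusted p = 0.0076 and 0.0187) and not without any of the other 6 (0.0512 to 0.138), while its log2 fold change stayed between −2.65 and −2.29. With a replicate block the calls for Nudt7 (adjusted p = 0.128) and Cables1 (0.184) were lost in edgeR. The filter still asked for 10 counts in 4 libraries in these fits, which for Gm45910 only the KO livers reached. The gene therefore could not pass the filter when a KO library was left out, and it passed in the 4 fits without a WT library.

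**Figure D2:**
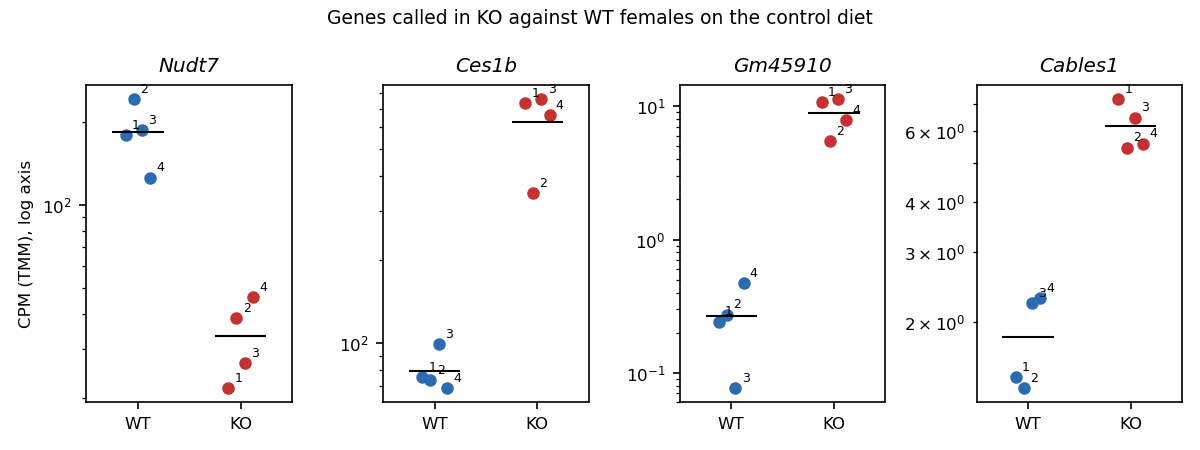
CPM (y axis, log scale, 1 panel per gene) of the 4 called genes in WT (blue) and KO (red) livers of females on the CD, with replicate numbers beside the points and the mean as a horizontal line. In each panel the 4 KO points lie wholly on one side of the 4 WT points, for Ces1b between 348 and 759.7 against 68.8 to 98.9 CPM.

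Ces1b and Gm45910 had the largest differences among the called genes. Ces1b encodes a carboxylesterase of the CES1 family, enzymes of the endoplasmic reticulum of hepatocytes that hydrolyse esters, including lipid esters. It lies at chr8:93056728-93080017 on the minus strand. It stood at 75.1, 73.5, 98.9 and 68.8 CPM in WT replicates 1 to 4 and at 732, 348, 759.7 and 663 CPM in KO replicates 1 to 4. Even the lowest KO liver exceeded the highest WT liver. The means were 79.1 ± 13.5 and 626 ± 189 CPM (SD, n = 4), a 7.91-fold difference (log2 fold change 2.98, standard error 0.25, adjusted p = 0.00102, edgeR). Leaving out any single library kept this call (adjusted p from 3.93e-05 to 0.0373).

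Gm45910, annotated as an unprocessed pseudogene at chr8:93141331-93154116 (minus strand), lies in the same cluster of Ces1 genes. It was nearly undetected in WT livers, with 3, 3, 1 and 7 counts in replicates 1 to 4, and had 132, 66, 182 and 100 counts in KO replicates 1 to 4. In CPM this was 0.243, 0.274, 0.077 and 0.472 against 10.7, 5.46, 11.4 and 7.87. The log2 fold change was 4.98 (standard error 0.39, adjusted p = 0.00101, edgeR), and its size rests on the few WT counts. The gene passed the filter only through the KO libraries, and with no filter on low counts its adjusted p was 1.76e-05 (edgeR). KO replicate 2 had the lowest value of the KO livers for Gm45910 as it did for Ces1b.

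The sequences of the cluster are alike, which limits how estimated counts can be divided among its genes. Of the 973 stretches of 31 bases in Gm45910, 21.3% occurred in a transcript of Ces1a to Ces1h, with 14.8% in Ces1c and 7.50% in Ces1b. Of the 1934 such stretches of Ces1b, 23.8% occurred in another member of this set, 19.8% in Ces1c and 3.77% in Gm45910. By this measure most stretches of either annotated transcript occurred in no other member of the set. Whether reads of Ces1b were counted for Gm45910 in KO livers was not tested. The other carboxylesterases did not show a difference of this size. Ces1g stood at 219, 124, 227 and 173 CPM in WT and at 188, 233, 269.8 and 245 CPM in KO livers (log2 fold change 0.33, standard error 0.19, adjusted p = 0.763, edgeR), and its log2 fold change was −0.0056 without the 3 libraries with acinar transcripts. Ces1d, the most abundant of those named here, was 775 ± 53.6 in WT and 868 ± 90.5 CPM in KO livers (0.16, 0.12, 0.833). Of 12 carboxylesterases tested Ces1b alone was called, against 0.0314% of all genes, and the median log2 fold change was 0.01, the value over all genes.

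The 300 bases around the annotated start of Ces1b are shown because this protein-coding gene had the largest fold of those called. They come from RefSeq (GRCm38.p6, chr8:93079968-93080267, minus strand) and run 5′ to 3′ from 250 bases before to 50 bases after the start.
Ces1b: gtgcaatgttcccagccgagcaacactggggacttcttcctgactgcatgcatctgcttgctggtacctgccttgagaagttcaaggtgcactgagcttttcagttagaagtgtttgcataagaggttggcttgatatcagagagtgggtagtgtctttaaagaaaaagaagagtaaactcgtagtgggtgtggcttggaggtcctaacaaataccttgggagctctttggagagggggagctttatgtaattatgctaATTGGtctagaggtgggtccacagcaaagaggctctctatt
The capitals mark the reverse complement of CCAAT, the only match of the 4 motifs searched on both strands, which is held by 37.4% of 32544 RefSeq promoters of this length. TATAAA (13.6% of promoters), AGGTCA (16.2%) and TTGCNNCAA (2.09%) had no match in this window. Nothing follows from a match or its absence about a factor.

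The Ces1b difference was also present in females on the WD, in 8 livers not used above. Ces1b stood there at 59.7, 63.9, 78.0 and 87.2 CPM in WT and at 396, 730.2, 375 and 558 CPM in KO livers (log2 fold change 2.83, adjusted p = 0.00418, edgeR). Gm45910 followed with 0.0761, 0, 0.149 and 0.136 CPM in WT and 4.16, 8.97, 4.37 and 6.47 CPM in KO livers, and there too it passed the filter only through the KO libraries. Both genes were called in that comparison, in which 0.0156% of genes were.

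KO males were divided. On the CD, Ces1b stood at 37.7, 49.4, 59.4 and 39.4 CPM in WT males and at 36.4, 271, 166 and 47.1 CPM in KO males. KO replicates 2 and 3 lay above all WT males, whereas replicates 1 and 4 lay within or beside their range. Gm45910 was at 0 in KO males 1 and 4 and at 5.24 and 2.51 CPM in KO males 2 and 3. On the WD, Ces1b stood at 112, 40.1, 25.9 and 162 CPM in KO males against 33.9 to 45.7 CPM in WT males. Gm45910 in the same KO males stood at 1.98, 0.224, 0.0765 and 2.50 CPM, high in the libraries in which Ces1b was high. The log2 fold changes of Ces1b in males, 1.49 on the CD and 1.06 on the WD, were not called (adjusted p = 0.538 and 0.581, edgeR, with 0.00814% and 0.0162% of genes called in males on the CD and the WD). The difference between the KO effect in females and in males on the CD was 1.50 (standard error 0.69, adjusted p = 0.464), so a difference between the sexes in this effect was not established.

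**Figure D3:**
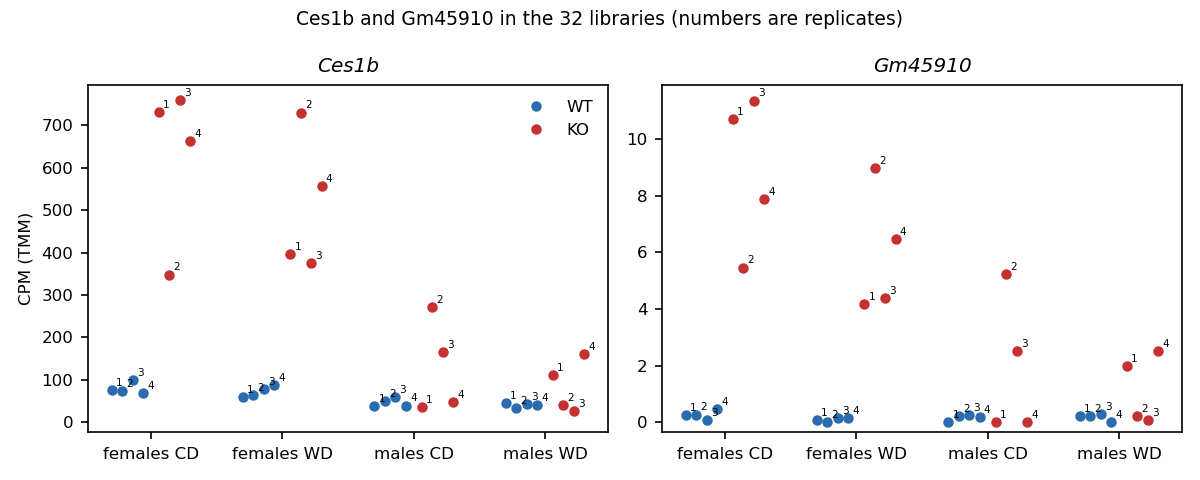
CPM (y axis) of Ces1b and Gm45910 in all 32 libraries by sex and diet (x axis), WT in blue and KO in red, with replicate numbers. All 8 KO females lie above the WT females, and among KO males only replicates 2 and 3 on the CD and 1 and 4 on the WD do so for Ces1b against the WT males of their diet.

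Cables1, an adaptor protein that links cyclin-dependent kinases to their regulators, was a low-abundance gene. It had 18, 15, 29 and 34 counts in WT replicates 1 to 4 and 89, 66, 104 and 71 counts in KO replicates 1 to 4. The corresponding values were 1.46, 1.37, 2.23 and 2.29 CPM and 7.22, 5.46, 6.49 and 5.59 CPM. The groups were well apart, with a 3.33-fold difference (log2 fold change 1.74, standard error 0.22, adjusted p = 0.0301, edgeR). Among the single libraries left out, only the omission of WT replicate 4 kept the call (adjusted p = 0.0405, against 0.0781 to 0.179 for the others). In the other groups its log2 fold change was −0.30 in males on the CD, 0.16 in females on the WD and 1.31 in males on the WD, none of them called (adjusted p = 0.814, 0.916 and 0.464).

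The Ces1 cluster and Nudt7 lie on the same chromosome, at a distance of 21.1 Mb for Ces1b and 20.98 Mb for Gm45910. Within 20 Mb of Nudt7 243 genes were tested and Nudt7 itself was the only one called. The Ces1 cluster lies just past this limit, and Ces1b and Gm45910 were the 2 called of 112 genes at 20 to 40 Mb. Of 311 genes farther away on chromosome 8 0 were called, and on the other chromosomes 1 of 12087, Cables1. Within 20 Mb 24 genes (9.88%) had an unadjusted p under 0.05. The share was 6.25% at 20 to 40 Mb, 8.36% farther away on chromosome 8 and 6.78% on the other chromosomes. Gcsh, which encodes a carrier protein of the glycine cleavage system and lies 2.83 Mb from Nudt7, stood at 94.4, 99.4, 80.3 and 76.3 CPM in WT and at 60.6, 61.7, 61.4 and 62.1 CPM in KO livers. The KO values were narrowly spread and all lay below the WT values (log2 fold change −0.51, standard error 0.11, adjusted p = 0.697 in edgeR, 0.0151 in DESeq2 on the same sums and 0.0975 in DESeq2 with length offsets). Its log2 fold changes in the remaining comparisons were −0.49 in males on the CD, −0.30 in females on the WD and −0.58 in males on the WD, with unadjusted p of 0.000515, 0.0113 and 0.0012 and adjusted p of 0.349, 0.503 and 0.376 in edgeR.

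DESeq2, the tool named in the submitters' processing notes, called more genes on the same counts. With length offsets it called 19 genes (0.149%), 10 higher (0.0784%) and 9 lower (0.0706%), and on plain sums 26 genes (0.204%), 14 higher (0.11%) and 12 lower (0.0941%). Both sets included the 4 genes called by edgeR, and 14 genes were shared by the pair of fits. Slc8b1, the mitochondrial sodium/calcium exchanger, stood at 48.8, 30.3, 49.3 and 49.1 CPM in WT and at 115, 77.5, 57.4 and 81.9 CPM in KO livers (edgeR log2 fold change 0.90, standard error 0.22, adjusted p = 0.697, and 0.00373 in DESeq2 with length offsets). Slc1a4, a transporter of neutral amino acids, stood at 14.6, 20.0, 12.5 and 13.3 CPM in WT and at 4.30, 8.77, 7.30 and 6.85 CPM in KO livers (−1.15, 0.22, adjusted p = 0.574 in edgeR and 0.0095 in DESeq2). In both genes, picked from the DESeq2 calls, the groups did not overlap.

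Others of the DESeq2 calls rested on few counts or on the length correction. Gm48501 had 24, 27, 47 and 71 counts in WT and 4, 13, 4 and 5 counts in KO livers (log2 fold change −2.67, standard error 0.46, adjusted p = 0.340 in edgeR and 0.000629 in DESeq2). It overlaps Sugct on the opposite strand. For Kcnq1, a potassium channel subunit, the log2 fold change was −0.39 on sums and −2.24 with length offsets, with 13 to 29 counts per library. For Pdzd2 it was 0.75 and 1.91, and for Mrc2, a collagen receptor, 0.93 and 1.84, so that the estimated mix of transcript lengths supplied much of the difference.

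The other genes of CoA metabolism were set beside Nudt7. Nudt8 and Nudt19, which encode CoA diphosphohydrolases of mitochondria and peroxisomes, overlapped between the groups. Nudt8 stood at 7.44, 8.21, 6.85 and 6.48 CPM in WT and at 6.73, 5.96, 5.86 and 6.85 CPM in KO livers, and a gene annotated on the same strand overlaps it. Nudt19 stood at 36.3, 52.1, 43.9 and 30.8 CPM in WT and at 44.9, 37.0, 29.1 and 40.6 CPM in KO livers. Neither showed a difference beyond the spread of the libraries. Enpp3, an ectoenzyme that splits nucleotide pyrophosphates, stood at 58.2, 41.1, 56.3 and 46.6 CPM in WT and at 71.0, 81.2, 58.3 and 66.6 CPM in KO livers (log2 fold change 0.45, standard error 0.15, adjusted p = 0.697, edgeR). KO replicate 3 was barely above WT replicate 1, and 2.09% of all genes were higher in every KO library. Of 10 genes of CoA degradation only Nudt7, the deleted gene itself, was called, against 0.0314% of all genes.

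Among 8 genes of CoA synthesis none was called in the edgeR fit of the 8 libraries, which called 0.0314% of all genes. Of these 4 lay above 0 and 4 below, and the median log2 fold change was 0.01. Ppcs, which couples cysteine to phosphopantothenate, stood at 16.1, 23.7, 17.3 and 16.3 CPM in WT and at 13.5, 11.5, 12.0 and 12.0 CPM in KO livers (log2 fold change −0.58, standard error 0.14, adjusted p = 0.697, edgeR). In the edgeR model of all 32 libraries Ppcs was among the 12 genes called of 13539 tested. Pank1, a pantothenate kinase, stood at 233, 225, 252 and 249 CPM in WT and at 392, 258, 279 and 282 CPM in KO livers (0.34, 0.14, 0.720). The groups were separate in opposite directions in these genes, and KO replicate 1 was far above the other KO livers for Pank1.

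Fatty acid oxidation takes place in mitochondria and in peroxisomes, where NUDT7 resides. Of 23 genes of peroxisomal oxidation none was called, against 0.0314% of all genes. Of these 12 lay above 0 and 11 below, against 52.4% and 47.6% of all genes, and the median was 0.00. Without the libraries with acinar transcripts 18 lay above 0 and 5 below, with a median of 0.13. That fit kept only WT replicates 1 and 3 and KO replicates 1, 2 and 4. Phyh, which starts the α-oxidation of phytanoyl-CoA, was 878 ± 116 CPM in WT and 1076 ± 48.3 CPM in KO livers (log2 fold change 0.29, adjusted p = 0.724). Of 18 genes of mitochondrial oxidation none was called, 6 lay above 0 and the median was −0.05. Without those libraries 18 of 18 lay above 0 with a median of 0.11, against 6269 of all 12221 genes of that fit. The list's median log2 deviation from each gene's mean was 0.03, 0.05, −0.30 and 0.33 in WT replicates 1 to 4. It was 0.21, −0.13, −0.09 and −0.03 in KO replicates 1 to 4. For both oxidation lists WT replicate 3, kept without those libraries, was lowest of the 8 livers and WT replicate 4, left out, highest. In ω-oxidation, Cyp4a32, a fatty acid hydroxylase, stood at 8.65, 3.19, 4.23 and 12.3 CPM in WT and at 39.7, 15.5, 16.5 and 30.4 CPM in KO livers. Every KO value exceeded every WT value (log2 fold change 1.83, standard error 0.49, adjusted p = 0.697 in edgeR and 0.0168 in DESeq2 with length offsets). With a replicate block its adjusted p was 0.0245 in edgeR, but replicate numbers did not pair the samples, so nothing is drawn from that fit. In females on the WD it was 0.92 higher on the log2 scale (adjusted p = 0.394), and it was 0.06 and −0.01 in males on the CD and the WD.

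KO replicate 1 stood apart for several genes that respond to fasting or stress. Pdk4, a kinase that inhibits pyruvate dehydrogenase, was 172 CPM in that liver against 47.7 to 65.4 in the other KO livers. Angptl4, an inhibitor of lipoprotein lipase, was 129 against 13.5 to 38.9 CPM. Mt2, a metallothionein, was 178 against 9.68 to 19.1 CPM. None of these genes was called between the groups, and the harvest state of this liver is not labelled.

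Genes of fatty acid synthesis had the lowest median of the 29 pathway lists. Of 15 tested 14 lay below 0, against 47.6% of all genes, with a median log2 fold change of −0.63. No member was called, and 2 had an unadjusted p under 0.05. Srebf1, the transcription factor that drives lipogenic genes, stood at 419, 416, 433 and 266 CPM in WT and at 117, 298, 143 and 253 CPM in KO livers (log2 fold change −0.92, standard error 0.30, adjusted p = 0.697). WT replicate 4 lay among the KO livers, so the groups overlapped. Pnpla3, a lipid droplet protein induced with lipogenesis, ranged from 7.09 to 139.6 CPM in WT and from 10.0 to 34.9 CPM in KO livers.

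The spread within the WT group was wide for this list. The median deviation of its members from their mean over the 8 libraries was 1.23 and 0.89 on the log2 scale in WT replicates 2 and 3 and −1.23 in WT replicate 4, with −0.59 to 0.25 in KO livers. The acinar level in the same libraries is given above, and its part in the result was not tested. Without the 3 libraries that held acinar transcripts the median log2 fold change was −0.49, with 14 of 15 below 0. In the other comparisons, which used other livers, it was −0.41 in males on the CD, −0.59 in females on the WD and −0.23 in males on the WD, each with 14 of 15 below 0. Of 20 genes of cholesterol synthesis 17 lay below 0, against 47.6% of all genes, and none had an unadjusted p under 0.05. Their median was −0.15, and −0.41 without the libraries with acinar transcripts. In the other comparisons it was −0.39 in males on the CD, −0.61 in females on the WD and −0.59 in males on the WD. There 20, 20 and 19 of the 20 genes lay below 0. All 5 targets of SREBP2 outside this pathway lay below 0, with a median of −0.34 and none at an unadjusted p under 0.05.

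Triacylglycerol turnover included genes on either side. Mgll, which encodes monoglyceride lipase, stood at 266, 350.3, 158 and 296 CPM in WT and at 138, 137, 162 and 161 CPM in KO livers. WT replicate 3 lay among the KO livers (log2 fold change −0.84, standard error 0.21, adjusted p = 0.697 in edgeR, 0.0983 in DESeq2 with length offsets and 0.0479 on sums). Gpd1, which makes glycerol 3-phosphate, stood at 329, 337, 255 and 343 CPM in WT and at 166, 237, 178 and 232 CPM in KO livers, without overlap (−0.64, 0.16, adjusted p = 0.697 in edgeR and 0.0332 in DESeq2 with length offsets). Gpcpd1, a glycerophosphocholine phosphodiesterase, stood at 36.9, 12.4, 38.8 and 39.7 CPM in WT and at 77.4, 60.1, 95.2 and 67.9 CPM in KO livers (1.23, 0.34, adjusted p = 0.697 in edgeR, 0.0338 in DESeq2 on sums and 0.151 with length offsets). The low WT value of Gpcpd1 was that of replicate 2, the library with the highest acinar level, and the log2 fold change was 0.86 without the 3 libraries. Lipg, endothelial lipase, was 18.8 ± 5.54 CPM in WT and 10.6 ± 2.22 CPM in KO livers (−0.83, adjusted p = 0.697). Fabp1, the fatty acid binding protein of hepatocytes, ranged from 1102 to 3748 CPM in WT and from 1272 to 1519 CPM in KO livers.

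Genes that bring proteins into the endoplasmic reticulum (ER) and fold them lay to one side as a list. All 26 tested had a log2 fold change below 0, against 47.6% of all genes, with a median of −0.40. Of these 14 had an unadjusted p under 0.05, against 3.43% of all genes in that direction, and 7 lay below every WT library in each KO library, against 2.29%. None was called in the edgeR fit of the 8 libraries or in DESeq2 with length offsets. DESeq2 on sums called Srprb and Xbp1, and the edgeR model of all 32 libraries called Srprb. This list was composed with earlier results of these samples known, so its direction is not independent evidence.

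Srprb, a subunit of the receptor for the signal recognition particle, stood at 23.9, 29.0, 20.2 and 24.7 CPM in WT and at 10.3, 15.8, 14.8 and 15.1 CPM in KO livers (log2 fold change −0.80, standard error 0.16, adjusted p = 0.574 in edgeR, 0.0113 in DESeq2 on sums and 0.247 with length offsets). Xbp1, a transcription factor of the unfolded protein response, stood at 159, 160.0, 151 and 166 CPM in WT and at 98.8, 121, 132 and 109 CPM in KO livers (−0.47, 0.12, adjusted p = 0.697 in edgeR, 0.0338 in DESeq2 on sums and 0.131 with length offsets). Txndc5, a protein disulfide isomerase, stood at 140.0, 143, 121 and 157 CPM in WT and at 80.1, 107, 92.1 and 113 CPM in KO livers (−0.52, 0.14, 0.697). In these genes, picked for their small p or after the study's text or tables, each KO liver lay below each WT liver. Creb3l2, a transcription factor of the secretory pathway, was 50.3 ± 8.04 CPM in WT and 31.4 ± 7.78 CPM in KO livers (−0.68, adjusted p = 0.697).

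Acinar cells express ER genes strongly, and the acinar level was high in WT replicates 2 and 4 and in KO replicate 3. Without these 3 libraries 25 of the 26 genes lay below 0 and the median was −0.31. The median deviation of the list was 0.23, 0.20, 0.04 and 0.33 in WT replicates 1 to 4 and −0.34, −0.11, −0.26 and 0.04 in KO replicates 1 to 4. In the 3 libraries with high acinar levels the list thus stood at 0.20 and 0.33 (WT replicates 2 and 4) and at −0.26 (KO replicate 3). In the others it stood at 0.23 and 0.04 (WT replicates 1 and 3) and at −0.34, −0.11 and 0.04 (KO replicates 1, 2 and 4). The part of the acinar level in this list was not tested. In the other comparisons the median was 0.06 in males on the CD, −0.04 in females on the WD and −0.07 in males on the WD. For Xbp1 the KO effect in females minus that in males on the CD was −0.69 on the log2 scale (unadjusted p = 0.000447, adjusted p = 0.183, edgeR), so the difference between the sexes did not pass the test.

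**Figure D4:**
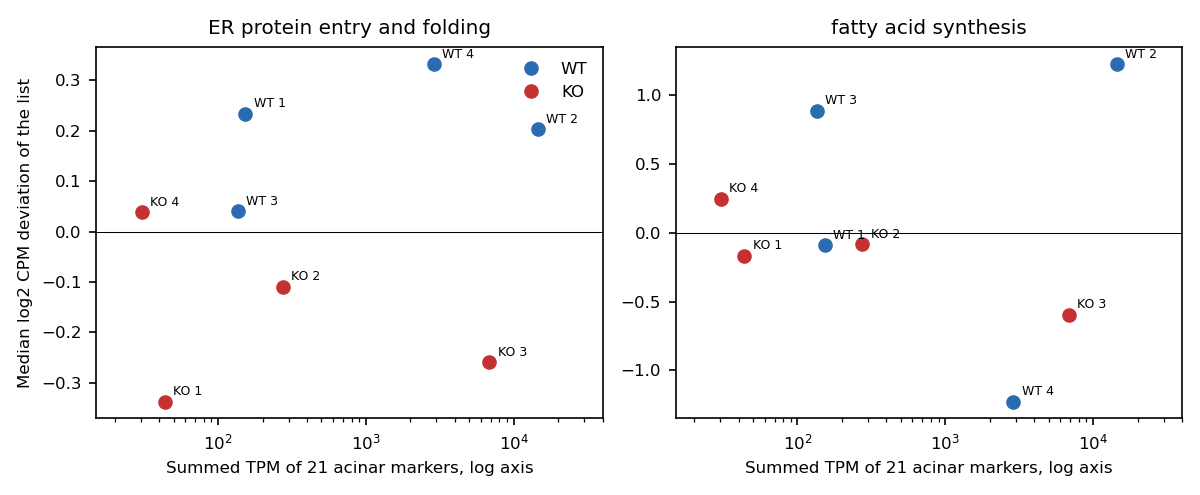
Median log2 CPM deviation of the members of 2 lists from their mean over the 8 libraries (y axis, a list per panel) against the summed TPM of 21 pancreatic acinar markers (x axis, log scale), WT in blue and KO in red, 1 point per library. For the ER list the WT livers lie between 0.04 and 0.33 and the KO livers between −0.34 and 0.04. For fatty acid synthesis the WT livers spread from −1.23 to 1.23.

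Genes of the interferon response and of antigen presentation lay on the other side. Of 23 tested 19 were above 0, against 52.4% of all genes, with a median of 0.25. Of these 6 had an unadjusted p under 0.05, against 3.44% of all genes in that direction, and none was called in edgeR. H2-T23, a nonclassical class I molecule, stood at 172, 145, 179 and 165 CPM in WT and at 254, 191, 256 and 226 CPM in KO livers (log2 fold change 0.49, standard error 0.13, adjusted p = 0.697). Trim12a, of the TRIM family of antiviral factors, stood at 15.7, 12.2, 17.2 and 12.4 CPM in WT and at 22.8, 17.4, 21.8 and 20.7 CPM in KO livers (0.52, 0.14, adjusted p = 0.697 in edgeR, 0.0315 in DESeq2 with length offsets and 0.25 on sums). Usp18, which removes ISG15 from proteins, reached 31.6 CPM in KO replicate 1 and 11.2 to 16.1 in the other KO livers against 8.49 to 10.5 in WT livers. In these genes, picked for their small p, the groups did not overlap. Over the list they did, with a median deviation of −0.04, −0.20, 0.01 and −0.19 on the log2 scale in WT replicates 1 to 4 and 0.25, −0.07, 0.30 and 0.09 in KO replicates 1 to 4. Without the libraries with acinar transcripts the median was 0.12, with 16 of 23 above 0, and it was 0.00 in males on the CD, 0.08 in females on the WD and −0.09 in males on the WD. Among 15 acute-phase genes 4 had an unadjusted p under 0.05 above 0 and 2 below, against 3.44% and 3.43% of all genes, and none was called. Il1rn, the antagonist of the interleukin 1 receptor, stood at 2.26, 1.55, 2.31 and 3.10 CPM in WT and at 11.4, 2.73, 6.42 and 5.19 CPM in KO livers (log2 fold change 1.46, standard error 0.39, adjusted p = 0.697), and KO replicate 2 lay within the WT range. Hp, the haptoglobin gene, was 1610 ± 296 CPM in WT and 1162 ± 136 CPM in KO livers (−0.47, adjusted p = 0.697).

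**Figure D5:**
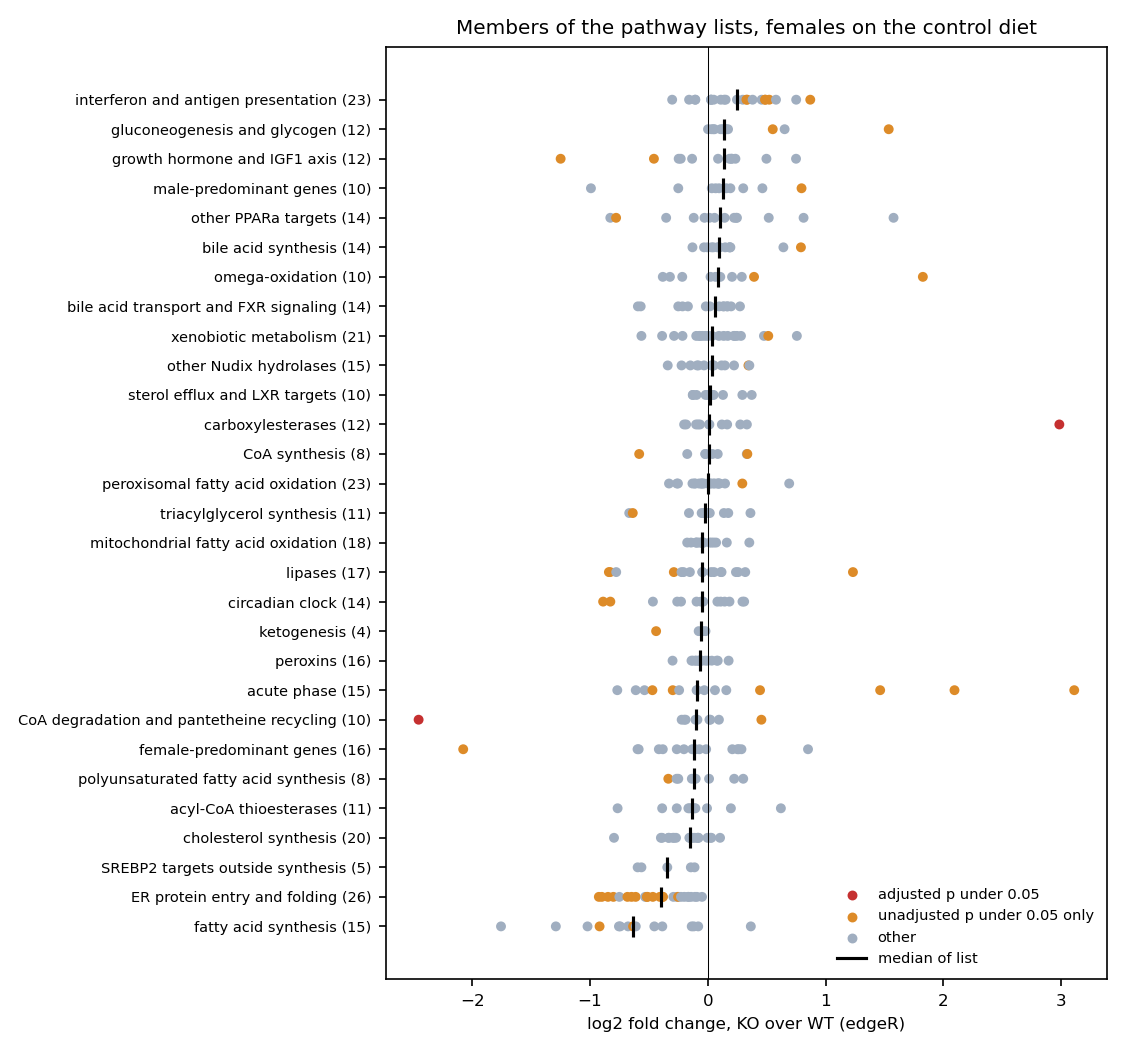
Log2 fold change of KO over WT (x axis) of the tested members of 29 pathway lists (y axis, number tested in brackets), red where the adjusted p is under 0.05, orange where only the unadjusted p is, grey otherwise, with the list's median as a black bar. The 26 ER genes all lie left of 0 with a median of −0.40, and Ces1b (2.98) and Nudt7 (−2.45) are the only red points.

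Cyp8b1, the sterol 12α-hydroxylase that directs bile acid synthesis towards cholic acid, stood at 242, 205, 279 and 125 CPM in WT and at 444, 278, 412 and 337 CPM in KO livers, with KO replicate 2 beside WT replicate 3 (log2 fold change 0.79, standard error 0.24, adjusted p = 0.697). In males on the CD it was −0.75 (adjusted p = 0.495, edgeR), and the KO effect in females minus that in males was 1.55 (adjusted p = 0.252). In females on the WD the Cyp8b1 means were 203 CPM in WT and 170 CPM in KO livers. In males on the WD they were 212 and 243 CPM, and the groups overlapped on this diet in both sexes. Of 14 genes of bile acid synthesis none was called, against 0.0314% of all genes. Gluconeogenic and glycogen genes were above 0 in 12 of 12, against 52.4% of all genes, with a median of 0.14. In the other comparisons 3 of 11 were above 0 in males on the CD, 11 of 12 in females on the WD and 4 of 11 in males on the WD. Ppargc1a, a member of this list and a coactivator induced by fasting, was 13.5 ± 2.73 CPM in WT and 19.9 ± 4.00 CPM in KO livers (0.55, adjusted p = 0.697). Per2 and Bhlhe40 of the circadian clock were −0.89 and −0.83, and both groups overlapped in each. Of 14 clock genes tested 6 lay above 0 and 8 below, with a median of −0.05. A1bg, a gene higher in female than in male liver, ranged from 47.7 to 166 CPM in WT and from 7.14 to 49.0 CPM in KO livers (−2.08, standard error 0.66, adjusted p = 0.701). Mup20, a male-predominant urinary protein, was 65.5 ± 9.24 CPM in WT and 114 ± 40.3 CPM in KO livers (0.80, 0.23, 0.697). Of 16 female-predominant genes tested 5 lay above 0 and 11 below, with a median of −0.12. Without the libraries with acinar transcripts 8 lay above 0 and 8 below. Of 10 male-predominant genes tested 8 lay above 0 and 2 below, with a median of 0.13.

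The KO effect in females on the CD was set against that in males on the CD in a model of all 32 libraries. A single gene of 13539 was called in edgeR (0.00739%, with 10.2% at an unadjusted p under 0.05), against 0.347% in DESeq2 with length offsets and 0.332% on sums. It was Pdk2, which encodes an isoform of pyruvate dehydrogenase kinase. It stood at 76.1, 76.6, 81.0 and 75.3 CPM in WT females and at 124, 93.6, 84.0 and 107 CPM in KO females. In males on the CD it stood at 86.5, 80.2, 91.6 and 80.7 CPM in WT and at 62.9, 54.1, 65.5 and 48.1 CPM in KO livers. Every KO female lay above the WT females and every KO male below the WT males, and the difference of the effects was 0.97 (standard error 0.17, adjusted p = 0.0429, edgeR). On the WD the log2 fold change was 0.06 in females and 0.05 in males. The call for Pdk2 was lost in 12 of the 16 fits that left out a library (adjusted p up to 0.163). Against females on the WD the KO effect on the CD differed for no gene in edgeR (0% of 13539, with 581 or 4.29% at an unadjusted p under 0.05), for 3 genes in DESeq2 with length offsets (0.0222%) and for 5 on sums (0.0369%).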

How the data were processed

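Liver mRNA of 32 mice was sequenced as 50 bp paired-end reads. The authors quantified transcripts with Salmon 1.3.0 (per the labels, which also name DESeq2 1.28.1) and deposited, for each library, estimated counts, the effective length in bases and TPM of each transcript on GRCm38. Here the deposited estimated counts were summed by gene over 115973 of 117135 transcripts matched to GENCODE vM21 (0.368% to 0.424% of counts fell outside it) and rounded. Genes that reached 10 counts in 4 or more of the 8 libraries were tested with edgeR 4.0.16 (quasi-likelihood, TMM, robust) and Benjamini-Hochberg adjustment at 0.05, in R 4.3.3. Differences of the KO effect between sexes or diets came from 1 model of all 32 libraries. DESeq2 1.42.0, with and without length offsets, was an alternative. Deposited TPM served for transcripts and marker sums, and CPM here is TMM-scaled. Single values were compared by exact permutation tests (SciPy 1.17.1). The fits were tested on simulated data.

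Groups followed the labels. Nothing in the labels beyond separate numbered samples describes the replicates, so p-values measure the spread between these libraries. The depth of 11071146 to 15084668 counts left a median standard error of 0.17 on the log2 scale. Lists, members and rules were chosen with earlier results of these data known. Named genes were the called genes, up to 10 called by DESeq2 with length offsets, genes called within 20 Mb of Nudt7, up to 4 genes of smallest p in each list, genes named in the study's text or tables, and the CoA hydrolases. Prss2 was named after its values were seen. Alternatives changed the normalization, filter, tool, model, replicate block and libraries included, and the removal of a length trend and an acinar covariate were chosen after seeing the data.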

Additional observations from a re-analysis of the deposited data

Results flagged for a closer look

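In groups of 4 libraries, a library was singled out when its gap to the nearest other exceeded Dixon's critical share of the group's range, which chance alone meets in about 5% of groups. KO replicate 1 stood high for Mt2 (178 CPM), Pdk4 (172 CPM), Cyp4f15 (149 CPM), a fatty acid hydroxylase, and Cyp1a2 (165 CPM), a xenobiotic hydroxylase. KO replicate 3 stood high for Prss2 (189.8 CPM), the summed acinar markers (6837 TPM) and Des (75.8 CPM), a stellate cell filament, and low for Ppargc1a (13.9 CPM). WT replicate 2 stood low for Slc8b1 (30.3 CPM), Gpcpd1 (12.4 CPM) and Usp18 (8.49 CPM) and high for Ppcs (23.7 CPM). WT replicate 1 stood apart for Ighm (102 CPM), Phkg1 (1.54 CPM), a subunit of phosphorylase kinase, and the summed lymphocyte markers (297 TPM). WT replicate 3 stood low for Gpd1 (255 CPM) and WT replicate 4 for Srebf1 (266 CPM).

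The KO effect on Pdk2 differed between females and males on the CD by 0.97 on the log2 scale (adjusted p = 0.0429, edgeR). All KO libraries lay above WT in females and below WT in males, where the log2 fold change was −0.55.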

How the results depend on the processing

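The 4 genes called in females on the CD became 26 with DESeq2 on gene sums, 19 with DESeq2 and length offsets, 12 in a model of all 32 libraries, 2 with the acinar level as a covariate (chosen after seeing the data) and 0 without the libraries with pancreatic transcripts (710 at an unadjusted p under 0.05). The last of these fits had only WT replicates 1 and 3 against KO replicates 1, 2 and 4. The 12 genes of the model of all 32 libraries were Gm48501, Gm37240, Ces1b, Cables1, Nudt7, Gm45910, Ppcs, Srprb, Ints1, Sbsn, Mgll and Cyp4a32. Leaving out 1 library gave 1 to 5 calls: 5 without WT replicate 4, 1 without KO replicate 1, 2 or 3, and 2 without any other. Gm45910 could not pass the filter in the fits without a KO library. The single call for the difference between the sexes became 0 with RLE size factors, length offsets in edgeR, no filter, a model of 16 libraries or without the acinar libraries, 45 with DESeq2 on sums and 47 with length offsets, and 0 to 8 when 1 library was left out (8 without KO female 2, 5 without WT female 3). For the diets, 0 became 5 and 3 in the DESeq2 fits and stayed 0 in the edgeR fits. Replicate numbers did not pair the samples (correlations −0.0393, 0.0784, −0.476 and −0.0419). With a replicate block 3 genes were called in females on the CD, Ces1b, Gm45910 and Cyp4a32 (2 of the 4 called without it), and 3 for the sexes. Log2 fold changes that turned sign were those of Nudt19 (−0.22 to 0.034 without 1 library, 0.028 without the acinar libraries), Fitm2 (−0.22 to 0.13 without 1 library, 0.16 without the acinar libraries), Prss2 (−5.91 without KO replicate 3 to 0.70 without WT replicate 2), Ces1g (−0.0056) and Nr0b2 (0.17), the last 2 without the acinar libraries. The causes were not tested.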
